A study of Mus musculus with 2 samples.

Results

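Matrilins and the small adaptor proteins of cartilage were followed through the RNA-Seq counts of primary chondrocytes and primary dermal fibroblasts. They comprise 10 genes, taken by name from the 24421 gene names of the deposited table. They are the 4 matrilin genes *Matn1*, *Matn2*, *Matn3* and *Matn4*, the cartilage oligomeric matrix protein gene *Comp*, the link protein gene *Hapln1*, the chondromodulin gene *Lect1* (*Cnmd* in RefSeq), and the genes of the small secreted proteins *Ucma*, *Clec3a* and *Cytl1*. In the chondrocyte library 9 of the 10 were over 30-fold higher than in the dermal fibroblast library, as were 0.531% of all genes above 0. The 30-fold cutoff was not planned in advance. The counting interval of *Matn4*, the lowest of the 9, reached below it (27.5 to 55.4). Of those 9 genes, 5 had no read at all in dermal fibroblasts. *Matn2* went the other way and was 2.201-fold higher in dermal fibroblasts.

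Cartilage matrix is a collagen II fibril network that holds aggrecan bound to hyaluronan. Matrilins and COMP are multimeric adaptors that bridge the fibrils, the collagen IX on their surface and the proteoglycans. Link protein locks aggrecan onto hyaluronan. Chondromodulin is an antiangiogenic glycoprotein of avascular cartilage. Mutations in the human genes of COMP and matrilin-3 cause skeletal dysplasias of the pseudoachondroplasia and multiple epiphyseal dysplasia group.

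The study compared 1 library of primary chondrocytes from the rib cartilage of newborn mice with 1 library of primary dermal fibroblasts from the dorsal skin of newborn mice. The sources used here name no treatment and give no strain, sex or number of animals for either library. The chondrocytes were released by collagenase and used within 2 passages, so cultured cells and not intact cartilage were measured. The chondrocyte library held 18788599 counted reads and the dermal fibroblast library 17563724, and 17718 genes were above 0 in at least 1 library. Each library matched its label, with all 5 chondrocyte markers over 2-fold higher in the first and all 5 fibroblast markers over 2-fold higher in the second. *Col2a1* had 1447098 reads in chondrocytes and 0 in dermal fibroblasts. The chondrocyte library was not free of other transcripts, since the 5 fibroblast markers summed to 107698 reads in it, against 877223 in dermal fibroblasts, and the 6 skeletal muscle markers summed to 25615 and 21326 reads.

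Each fold below is the ratio of the read counts after scaling with TMM effective library sizes. The range in parentheses is a 95% Clopper-Pearson interval that covers counting error only. With 1 library per cell type there is no replicate check and no test of any difference, so the intervals describe these 2 libraries. Where a library had 0 reads, the fold was taken against a floor of 3 reads in that library. The lower limit of the counting interval lies below that fold and is given beside it, and there is no upper limit. In bulk RNA, fewer cells of a type and less RNA per cell cannot be told apart.

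Among the matrilins, *Matn3* was the most abundant in chondrocytes and *Matn2* was the most abundant in dermal fibroblasts. *Matn3*, a cartilage matrilin of the growth plate, had 10193 reads in chondrocytes and 8 in dermal fibroblasts, which is 1309-fold higher in chondrocytes (664 to 3032). *Matn1*, the cartilage matrix protein first purified with aggrecan, had 2052 reads in chondrocytes and none in dermal fibroblasts. The fold of *Matn1* against the floor was 702.5, with a lower counting limit of 571. *Matn4*, a matrilin found in cartilage and in other tissues, had 1309 reads against 35 and was 38.4-fold higher (27.5 to 55.4).

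*Matn2*, the matrilin with the widest tissue distribution, had 897 reads in chondrocytes and 2028 in dermal fibroblasts. It was 2.201-fold higher in dermal fibroblasts (2.03 to 2.38), and between 2.02-fold and 2.42-fold higher there under the 5 other scalings tried. It therefore lay close to the 2-fold threshold while the other 3 matrilins lay far from it. The share of *Matn2* among all matrilin reads, which needs no scaling between libraries, was 6.21% of 14451 reads in chondrocytes (exact binomial interval 5.82 to 6.61) and 97.9% of 2071 reads in dermal fibroblasts (97.2 to 98.5). *Matn3* made up 70.5% of the matrilin reads in chondrocytes (69.8 to 71.3) and 0.386% in dermal fibroblasts (0.167 to 0.760).

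The dermal preparation also held more reads of other skin cell types. The 4 keratinocyte markers summed to 4462 reads there against 117 in chondrocytes, with *Krt5* at 1693 against 1. The 4 endothelial markers summed to 705 against 222 reads. Of the 4 Schwann cell markers, *Sox10* had 310 against 25 reads, whereas *S100b*, which chondrocytes also express, had 87 against 2657. The part of these cells in the *Matn2* difference was not tested.

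**Figure D1:**
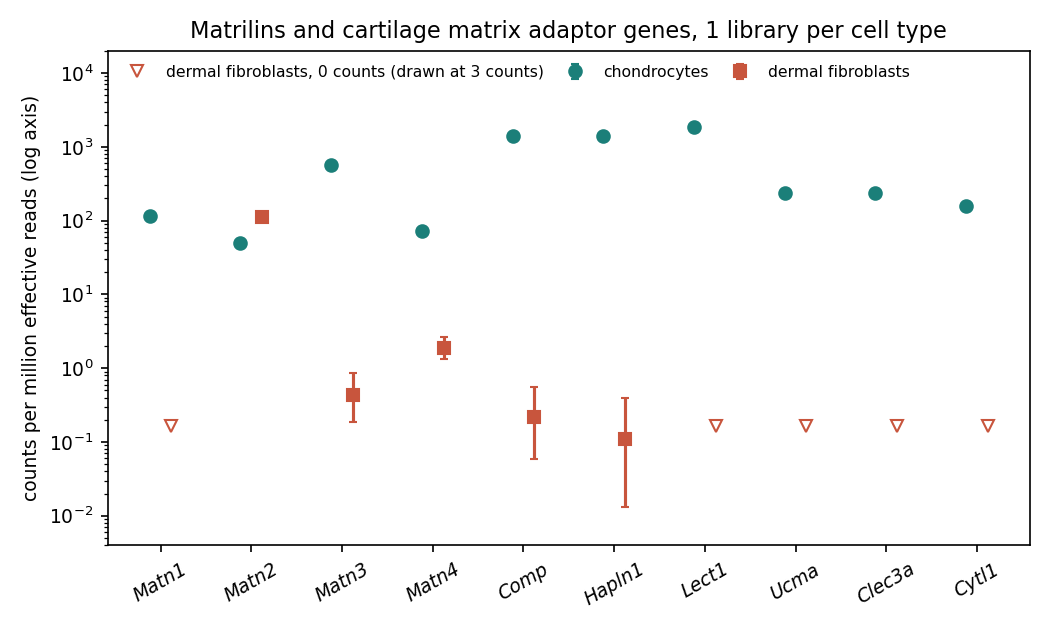
Level of each of the 10 genes in the chondrocyte library (circles) and the dermal fibroblast library (squares), as CPM (counts per 1000000 reads of effective library size) on a log axis, with 95% exact Poisson intervals. The open triangles mark the 5 genes with 0 reads in dermal fibroblasts, drawn at 3 reads, and *Matn2* is the gene whose square lies above its circle.

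*Comp* had 25116 reads in chondrocytes and 4 in dermal fibroblasts. It was 6449-fold higher in chondrocytes (2518 to 23671) and ranked 53 among all genes of that library. COMP is the fifth thrombospondin, and the other thrombospondin genes lay nearer to equal levels or on the dermal fibroblast side. *Thbs4*, a thrombospondin of tendon and muscle, had 3668 against 220 reads and was 17.1-fold higher in chondrocytes (14.9 to 19.7). *Thbs3* had 1793 against 547 reads and was 3.37-fold higher (3.06 to 3.71). *Thbs1* had 80164 against 58838 reads, a fold of 1.40 (1.38 to 1.41). *Thbs2* had 4967 against 52992 reads and was 10.4-fold higher in dermal fibroblasts (10.1 to 10.7). The intervals of the 4 relatives lay below that of *Comp*.

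*Comp* is also expressed in tendon and ligament. The 4 tendon markers were low in both libraries, with 340 reads in chondrocytes and 288 in dermal fibroblasts. *Scx* had 160 and 58 reads, *Tnmd* had 128 and 193, and *Kera* had 0 and 13. Their part in the *Comp* difference was not tested.

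*Hapln1* had 25199 reads in chondrocytes against 2 in dermal fibroblasts, a 12941-fold ratio (3582 to 106862), and ranked 52 in chondrocytes. Link protein genes sit next to the genes of the lecticans, the hyaluronan-binding proteoglycans that the proteins stabilise. *Hapln1* lies 43.5 kb from the versican gene *Vcan* on chromosome 13. *Vcan* had 7048 against 15399 reads and was 2.13-fold higher in dermal fibroblasts (2.07 to 2.19), so the neighbours went in opposite directions. *Hapln3* lies 1.93 kb from the aggrecan gene *Acan* on chromosome 7. *Hapln3* had 51 reads in chondrocytes and 3 in dermal fibroblasts (17.5-fold, 5.65 to 87.5), beside 148105 and 35 reads of *Acan* (4346-fold, 3125 to 6240). *Hapln4* had 19 and 20 reads, and *Hapln2* had 0 in both libraries, which leaves its level not detectable at this depth. *Hapln1* thus gave nearly all link protein reads of the chondrocyte library.

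*Lect1* was the gene with the most reads of the 10. It had 33082 reads in chondrocytes, rank 39 of that library, and none in dermal fibroblasts. The fold of *Lect1* against the floor was 11326, with a lower counting limit of 9210. *Tnmd* encodes tenomodulin, the closest relative of chondromodulin and a marker of tendon. *Tnmd* had 128 against 193 reads and was 1.47-fold higher in dermal fibroblasts (1.17 to 1.85). The pair differed in direction and the contrast of *Lect1* was not seen in its relative.

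The 3 small secreted proteins had no read in dermal fibroblasts. *Ucma* encodes a vitamin K-dependent, gamma-carboxylated protein of the upper growth plate. It had 4212 reads in chondrocytes and was 1442-fold higher against the floor (lower limit 1172). *Clec3a*, a cartilage-derived C-type lectin, had 4182 reads and was 1432-fold higher against the floor (lower limit 1164). Its relative *Clec3b*, the tetranectin gene, had 24 against 238 reads and was 9.66-fold higher in dermal fibroblasts (6.33 to 15.4). *Cytl1*, a cytokine-like protein of cartilage, had 2791 reads and was 955.5-fold higher against the floor (lower limit 777). In the dermal fibroblast library the floor of 3 reads is 0.163 counts per 1000000 effective reads (CPM), and the exact Poisson interval of 0 reads reaches 0.200 CPM.

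**Figure D2:**
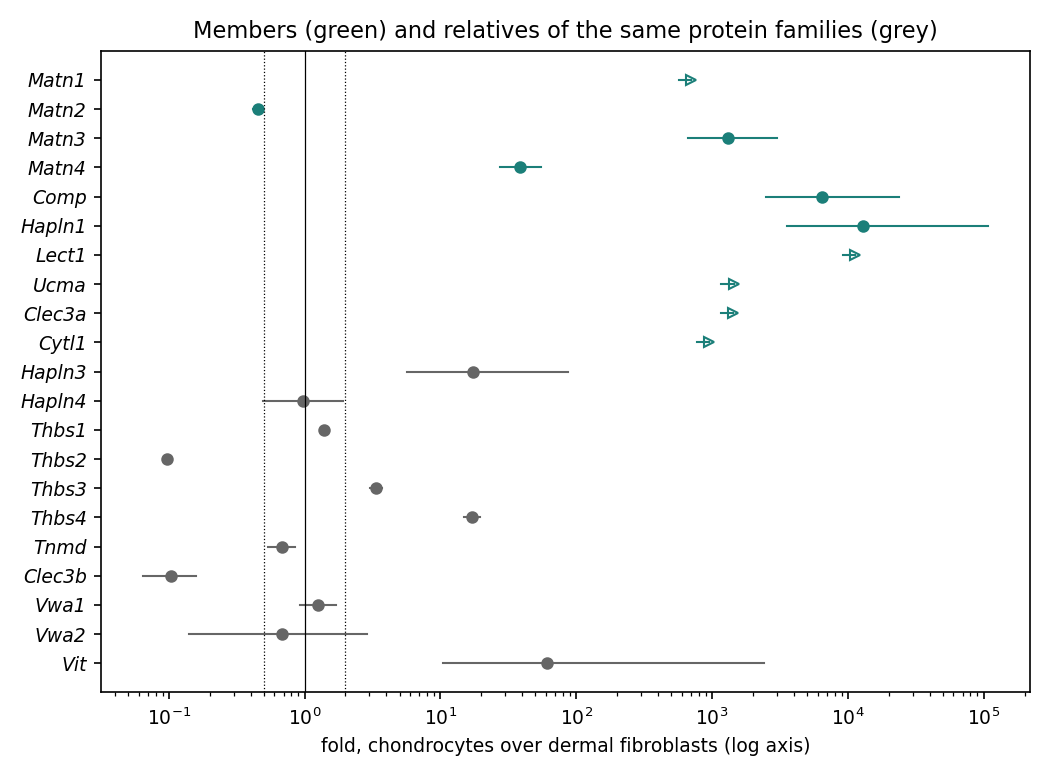
Fold of the 10 genes (green) and of the 11 relatives above 0 in at least 1 library (grey), chondrocytes over dermal fibroblasts on a log axis. Lines are 95% counting intervals, and dotted lines mark 2-fold in each direction. Open arrowheads are folds against the floor of 3 reads, for genes with 0 reads in dermal fibroblasts. Their lines run from the lower counting limit to the arrowhead, as these intervals have no upper limit. *Matn2*, *Thbs2* and *Clec3b* lie on the dermal fibroblast side with intervals beyond 2-fold.

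Over the 10 genes, 9 were over 2-fold higher in chondrocytes, with the whole counting interval above 2-fold for each of the 9. The background of this call was 10.7% of the 17718 genes above 0, and 5.88% with the whole interval above 2-fold. The 10th, *Matn2*, was over 2-fold higher in dermal fibroblasts, as were 13.9% of all genes, or 8.73% with the whole interval beyond 2-fold. All 10 had at least 897 reads in 1 library. Among the 11162 genes with at least 100 reads in the higher library, a background chosen after the data were seen, 8.79% were over 2-fold (6.78% with the whole interval) and 0.797% over 30-fold higher in chondrocytes, against 9 of the 10 genes here. The median log2 fold was 10.42 over the 10 genes, with counts under 3 set to 3, and 0.01 over those 11162 genes. By fold, with counts under 3 set to 3, 8 of the 10 were among the 25 highest of these 11162 genes, from *Lect1* at rank 3 and *Hapln1* at rank 4 to *Matn1* at rank 22. *Matn4* was at rank 75. A rank is not exact where the fold rests on the floor. With this floor *Hapln1* had a fold of 8627, below the 12941 of its counts as they stand.

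Together the 10 genes took 109033 reads, or 0.580% of the chondrocyte library (exact binomial interval 0.577 to 0.584), and 2077 reads, or 0.0118% of the dermal fibroblast library (0.0113 to 0.0123). *Lect1*, *Hapln1* and *Comp* gave 30.3%, 23.1% and 23.0% of the chondrocyte sum, and *Matn2* gave 97.6% of the dermal fibroblast sum.

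A complete absence of reads in dermal fibroblasts was rare among genes this abundant. Of the 3593 genes with at least 1000 reads in chondrocytes, 9 had 0 reads in dermal fibroblasts, which is 0.25%, and 5 of those 9 were *Lect1*, *Ucma*, *Clec3a*, *Cytl1* and *Matn1*. The other 4, named after their values were seen apart from the first pair, were *Col2a1*, the chondrocyte proteoglycan gene *Snorc* (listed under an older symbol), *Sim2* and *Rab11fip4*.

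**Figure D3:**
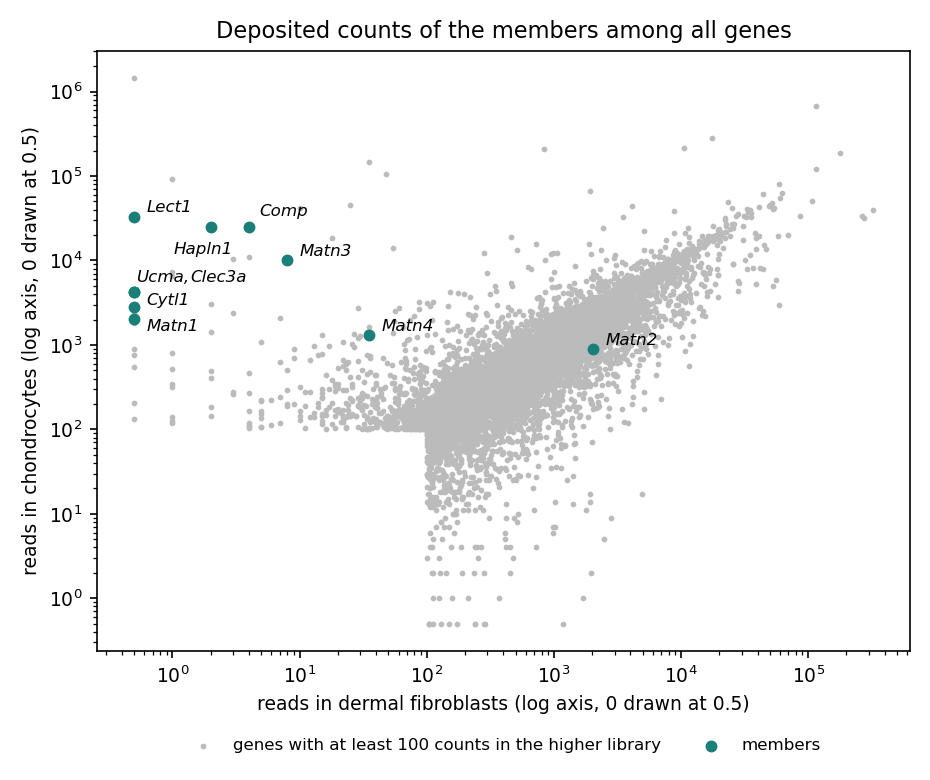
Reads of each gene in dermal fibroblasts (x axis) and chondrocytes (y axis), both on log axes with 0 drawn at 0.5, for the 11162 genes with at least 100 reads in the higher library (grey) and the 10 genes described here (green). *Matn2* lies within the cloud of genes, and the other 9 lie at its upper left, 5 of them at 0 reads in dermal fibroblasts.

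To compare the genes with each other, reads were divided by the exon length of each gene in the GENCODE vM1 annotation and by effective library size, as reads per kilobase for each 1000000 effective reads (RPKM). In chondrocytes *Lect1* had the highest level at 1001 RPKM (exact Poisson interval 991 to 1012). *Comp* followed at 578 RPKM (571 to 585), *Clec3a* at 395 (383 to 407), *Hapln1* at 278 (275 to 282) and *Ucma* at 266 (258 to 274). *Matn3* had 189 RPKM (185 to 192) and *Cytl1* 160 (154 to 166). *Matn1* had 57.2 RPKM (54.8 to 59.7), *Matn4* 14.1 (13.4 to 14.9) and *Matn2* 13.9 (12.97 to 14.8). Each step in this order was larger than the counting error, other than that from *Matn4* to *Matn2*, whose intervals overlapped.

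The order depended on the length used. Per kilobase of coding sequence, *Lect1* stayed first at 1820 RPKM, *Hapln1* moved ahead of *Comp* and *Clec3a* at 1316, and *Comp* had 616, *Ucma* 568, *Clec3a* 397, *Matn3* 394 and *Cytl1* 373. The exons of *Hapln1* span 5.055 kb, of which 1.068 kb are coding. The *Clec3a* model has 0.591 kb of exon and 0.588 kb of coding sequence and so holds almost no untranslated region, which raises its level per exon length. In both orders *Matn1*, *Matn4* and *Matn2* were last, and *Matn3* exceeded *Matn1* by 3.30 times per exon length (3.14 to 3.46) and 5.16 times per coding length.

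In dermal fibroblasts *Matn2* had 30.5 RPKM (29.2 to 31.9) and *Matn4* 0.367 (0.256 to 0.511). *Matn3* (0.144), *Comp* (0.0896) and *Hapln1* (0.0215) followed, and from *Matn4* on the interval of each gene overlapped that of the next. The other 5 genes were not detected there, where the floor of 3 reads is 0.0814 RPKM for *Matn1* and 0.276 for *Clec3a*.

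**Figure D4:**
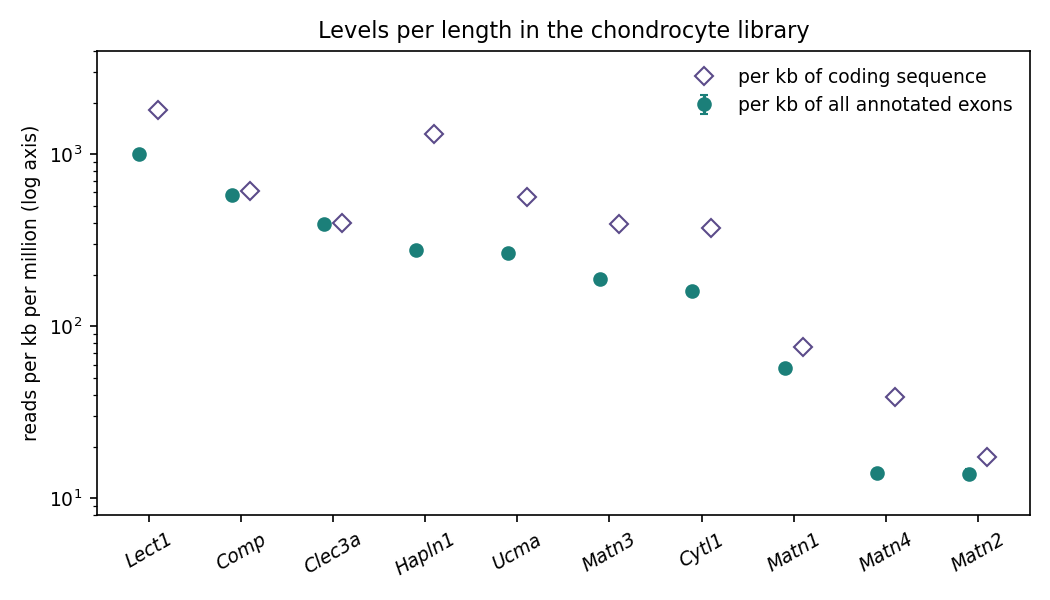
Level per length of the 10 genes in the chondrocyte library on a log axis, per kilobase of all annotated exons (circles, with exact Poisson intervals) and per kilobase of coding sequence (diamonds). *Hapln1* has the widest gap between both measures, 278 against 1316, and *Clec3a* the narrowest, 395 against 397.

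The genes were also set against matrix molecules that their proteins bind, or that bind hyaluronan or collagen beside them. In the chondrocyte library *Hapln1* had 24.8% of the level of *Acan* per exon length (a ratio of 0.244 to 0.251) and 101.9% per coding length. The proportion of link protein to aggrecan transcripts thus depended on the length used and is not settled by these counts. *Comp* had 51.4% of the *Acan* level per exon length and 47.7% per coding length. *Matn3* had 18.7% of the level of *Col9a1* per exon length and 21.1% per coding length, and *Comp* had 4.32% and 3.40% of the level of *Col2a1*.

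The 14 partner genes listed for this comparison also included *Has2*, a hyaluronan synthase gene. Of the 14, 11 lay over 2-fold on the chondrocyte side and 3 on the dermal fibroblast side. The whole interval was beyond 2-fold in each case. Over all 17718 genes above 0, 5.88% and 8.73% had the whole interval beyond 2-fold on these sides. The cartilage collagens and aggrecan went with the 9 genes above. *Col9a1* had 92699 reads against 1, *Col9a2* 41496 against 10, *Col9a3* 44950 against 25, *Col11a2* 106437 against 48 and *Col11a1* 211841 against 839. The small proteoglycans were split, with *Fmod* 12.03-fold higher in chondrocytes (11.3 to 12.8) and *Dcn* 3.43-fold (3.33 to 3.54) and *Bgn* 2.04-fold higher (2.02 to 2.06) in dermal fibroblasts. *Vcan* was the third partner on that side. The calls of *Bgn* and *Vcan* lay close to the threshold: over the 5 other scalings, *Bgn* fell under 2-fold with the upper quartile (1.996), without the most abundant genes (1.98) and with *Actb* (1.88), and *Vcan* with *Actb* (1.95). *Chad*, which encodes a collagen-binding leucine-rich protein, had 634 reads against 7 and was 93.02-fold higher (44.9 to 232).

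Among 12 relatives of the same protein families, 4 were over 2-fold higher in chondrocytes (*Thbs3*, *Thbs4*, *Hapln3* and *Vit*). In dermal fibroblasts 2 were (*Thbs2* and *Clec3b*), and *Hapln2*, with 0 reads in both libraries, could not be called. Over all 17718 genes above 0, the shares of these calls were 10.7% and 13.9%, which also stand beside the counts below. *Vit*, whose protein carries von Willebrand factor A domains as matrilins do, had 59 reads against 1. *Vwa1*, of the same domain class, had 94 against 77 reads, a fold of 1.25 (0.918 to 1.72). Of 13 other secreted cartilage genes, 10 were over 2-fold higher in chondrocytes and *Cilp* was 4.59-fold higher in dermal fibroblasts (2.84 to 7.74), with 21 reads against 99. *Epyc* had 7388 reads against 1, *Snorc* 2370 against 0, *Mia* 762 against 0 and *Col10a1*, the hypertrophic collagen, 10378 against 3. Of 5 regulators, *Sox9* was 15.2-fold higher (13.6 to 17.0), *Sox5* 36.4-fold (24.9 to 55.5) and *Sox6* 28.1-fold (23.1 to 34.4), *Nkx3-2* had 51 reads against 0, and *Runx2* was within 2-fold at 1.39 (1.26 to 1.52).

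The genes closest in fold to each of the 5 genes with reads in both libraries were sought among 11136 genes with at least 100 reads in the higher library and reads in both. The likeness is the difference in log2 fold over these 2 libraries. Closest to *Comp* were *Mfi2* (6502 reads against 1, a difference of 0.05) and *Epyc* (0.23), and the same pair was closest to *Hapln1*, at 0.95 and 0.77. These differences rest on 1 dermal fibroblast read each of *Mfi2* and *Epyc*, 4 of *Comp* and 2 of *Hapln1*. The counting interval of *Epyc* (1361.5-fold to 299755-fold) covers that of *Comp* (2518 to 23671), so their order of likeness lies within counting error. Closest to *Matn3* were *Ppp1r1b* (3015 against 2, 0.24) and the matrix Gla protein gene *Mgp* (18280 against 18, 0.33). Their ratios, 1548 and 1043, both lie in the counting interval of *Matn3* (664 to 3032), so this likeness too is within counting error. Closest to *Matn4* were *Mtus2* (223 against 6) and *Fry* (3228 against 87), and closest to *Matn2* were *Zfp36* and *Pcdhgc5*, each within 0.02.

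Each of the 10 genes was compared with its nearest protein-coding gene in GRCm38.p6. Of 9 such neighbours with over 3 reads in a library, 4 passed 2-fold on the chondrocyte side (*Stk32b*, *Wdr35*, *Mcm10* and *Rbpjl*). Another 4 stayed within 2-fold, and 1, *Vcan*, passed it on the dermal fibroblast side. Of the 17718 genes above 0, 10.7% met the chondrocyte call and 13.9% the dermal fibroblast call. Unlike the 9 neighbours, those genes include some with 3 reads or fewer in both libraries, which cannot meet either call. Whether the neighbours differ from these shares was not tested. Scaling by *Actb* took *Vcan* under 2-fold (1.95), and scaling by total counts took *Mcm10* under it (1.93) and *Laptm5*, next to *Matn1*, from 1.90-fold to 2.09-fold higher in dermal fibroblasts. *Cytl1* (chromosome 5, 37735519 to 37739820) lies 18.4 kb from *Stk32b*, which had 496 against 2 reads, a 254.7-fold ratio (70.1 to 2109). *Matn3* (chromosome 12, 8947929 to 8972028) lies 1.97 kb from *Wdr35*, which had 1204 against 499 reads (2.48-fold, 2.23 to 2.76). *Ucma* (chromosome 2, 4976122 to 4985748) lies 4.98 kb from *Mcm10*, with 456 against 221 reads (2.12-fold, 1.801 to 2.50). *Comp* (chromosome 8, 70373548 to 70382066) lies 0.286 kb from *Crtc1*, with 518 against 429 reads (1.24-fold, 1.09 to 1.41).

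*Matn4* (chromosome 2, 164389393 to 164405160) shares 2080 bp with *Rbpjl* on the opposite strand. *Rbpjl* had 12 reads in chondrocytes and 0 in dermal fibroblasts, so its fold of 4.11 rests on the floor (lower limit 2.85). The sources used here leave the strand setting of the counting unstated, so reads in the shared stretch cannot be assigned with certainty, although the *Rbpjl* count was small beside the 1309 reads of *Matn4*. *Matn2* (chromosome 15, 34306681 to 34436242) encloses *9430069I07Rik*, which had 1 and 0 reads. The remaining genes are *Matn1* (chromosome 4, 130944385 to 130955476), *Hapln1* (chromosome 13, 89540529 to 89611832), *Lect1* (chromosome 14, 79637682 to 79662194) and *Clec3a* (chromosome 8, 114418034 to 114428133).

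Because 9 of the genes were higher in the same library, their promoters were searched for shared letters. RefSeq promoter windows of 300 bp in GRCm38.p6, from 250 bases before to 50 after the start, were found for 7 of the 10 genes, in 8 windows. The 250 upstream bases are shown for 4 genes whose window begins at the annotated 5′ end, *Matn1*, *Ucma* and *Cytl1* with 0 reads in dermal fibroblasts and *Matn3* as the most abundant matrilin of chondrocytes. All are on the plus strand, written 5′ to 3′, with capitals at TTTAAA and at CCAAT on either strand.
*Matn1*, chr4:130944135-130944384: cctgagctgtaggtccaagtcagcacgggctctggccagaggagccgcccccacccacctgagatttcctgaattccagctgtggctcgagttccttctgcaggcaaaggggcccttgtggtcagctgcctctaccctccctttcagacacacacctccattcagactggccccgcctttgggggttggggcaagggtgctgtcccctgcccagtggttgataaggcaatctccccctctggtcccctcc
*Matn3*, chr12:8947679-8947928: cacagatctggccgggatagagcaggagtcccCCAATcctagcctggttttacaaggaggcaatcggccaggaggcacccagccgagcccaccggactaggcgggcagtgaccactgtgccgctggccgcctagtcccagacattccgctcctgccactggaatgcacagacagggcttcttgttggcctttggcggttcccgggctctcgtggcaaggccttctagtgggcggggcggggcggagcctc
*Ucma*, chr2:4975872-4976121: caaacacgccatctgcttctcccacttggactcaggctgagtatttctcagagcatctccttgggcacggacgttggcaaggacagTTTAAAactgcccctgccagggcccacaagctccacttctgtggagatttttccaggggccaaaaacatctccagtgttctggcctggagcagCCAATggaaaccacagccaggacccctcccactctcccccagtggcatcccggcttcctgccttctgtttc
*Cytl1*, chr5:37735269-37735518: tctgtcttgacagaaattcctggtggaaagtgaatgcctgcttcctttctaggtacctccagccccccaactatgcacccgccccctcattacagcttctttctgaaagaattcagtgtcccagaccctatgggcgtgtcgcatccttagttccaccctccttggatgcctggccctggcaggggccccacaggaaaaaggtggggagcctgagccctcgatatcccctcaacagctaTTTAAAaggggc

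The core letters of SOX factors (ACAAAG on either strand, and likewise ACAATG and also the letters AACAAT, which may overlap each other) were in 0 of the 8 windows, and in 33.2% of all 32817 promoter windows of this length. The TATA letters TATAAA were also in 0 of the 8, and in 13.6% of all windows. TTTAAA, a sequence chosen after the windows were seen, was in 3 of the 8 (*Matn3*, *Ucma* and *Cytl1*) and in 13.2% of all windows, and CCAAT was in 4 of the 8 and in 37.4% of all windows. Counted from the start, TTTAAA begins at -12 in *Cytl1*, at -164 in *Ucma* and at 13 in *Matn3*, after the start and outside the bases shown. The search covers these letters in these windows only.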

How the data were processed

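Stranded mRNA libraries, 1 for each cell type, were sequenced as 75 bp single ends and aligned to mm10, and the authors deposited unscaled read counts per gene. The submitters' processing notes list CASAVA 1.8.2, TopHat2 2.0.13, Bowtie2 2.2.3 and SAMtools 0.1.19. The counting program, its annotation and its strand setting are not given in the sources used here. The table's value columns both belong to a labelled sample. In 27 rows the symbol had been turned into a date, and these rows were kept but not named.

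Counts were scaled with TMM effective library sizes (edgeR 4.0.16 in R 4.3.3). Folds, 95% Clopper-Pearson and exact Poisson intervals came from scipy 1.17.1 (Python 3.11.15) on tables read by pandas 2.3.3. For calls of a fold over 2, counts under 3 were set to 3. For ratios printed with a library at 1 to 3 reads, the counts themselves were used. The libraries carried no stated molecular identifiers, so reads need not be separate molecules. No p-value was computed, since each cell type had 1 library. The calculations were tested on simulated counts.

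Exon, transcript and coding lengths were those of GENCODE vM1 (NCBIM37), matched by symbol for all 10 genes, and were used as lengths only. Positions and promoters were those of RefSeq for GRCm38.p6, the assembly of mm10. The genes and the lists of partners, relatives, other cartilage genes, regulators and cell type markers were chosen with earlier results of these data known. The genes named were the 10 members, those lists, the neighbours in position, and for each member with reads in both libraries the 2 genes nearest in log2 fold. *Sim2* and *Rab11fip4* were named besides, after their values were seen, for their 0 reads in dermal fibroblasts. *Snorc* was matched by an older symbol. The alternatives were scaling by total counts, DESeq2 1.42.0 median-of-ratios factors, the upper quartile, totals minus each library's 10 most abundant genes, or *Actb*. Others were a floor of 1 or of 10 counts, a pseudocount of 1, a 10-count minimum, 4-fold as threshold, the whole interval beyond 2-fold, and other gene lengths.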

Additional observations from a re-analysis of the deposited data

How the results depend on the processing

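No paired analysis was possible because neither cell type was sequenced more than once. The count of 9 members over 2-fold on the chondrocyte side was the same under all 11 alternatives, and so was that of the 11 partner genes. The 3 partner genes on the dermal fibroblast side, examined after seeing the data, became 2 with the upper quartile or without the most abundant genes, 1 with *Actb* and 0 with a fold over 4. *Matn2* was the 1 gene over 2-fold higher in dermal fibroblasts under 10 of them, and with a fold over 4 the count was 0. The relatives gave 4 under 10 alternatives and 3 with a fold over 4. Of 80 folds of single genes under other scalings, floors and the pseudocount, 72 stayed within the counting interval, 8 left it and 0 changed direction. The 5 genes with 0 reads in dermal fibroblasts have no upper limit, so a move upward could not leave their intervals. The 8 included *Matn2* with total counts (2.42-fold higher in dermal fibroblasts) and with *Actb* (2.02-fold). The rest were folds with a floor of 10 counts. Folds of genes with 0 reads follow the floor by construction: *Lect1* ranged from 3398 with a floor of 10 counts to 33978 with a floor of 1.

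Over all genes, 1887 were over 2-fold higher in chondrocytes and 2468 in dermal fibroblasts. With a pseudocount of 1 the counts were 2876 and 2846, so that the chondrocyte side became the larger. With a fold over 4 the counts were 713 and 929, with the whole interval beyond 2-fold 1041 and 1546, and among genes with at least 100 counts, a filter chosen after seeing the data, 981 and 1485, each smaller by construction. Total counts moved all log2 folds by -0.14 and *Actb* by 0.12 relative to TMM. All 10 genes kept their place in the order of levels per length with the longest transcript as length, and 6 with the coding length, because the share of untranslated sequence differs between them. Depth limits the dermal fibroblast values, where 8 of the 10 genes had 8 reads or fewer.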
